A study of Homo sapiens with 12 samples.

Results

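SLC7A11 and CHAC1, the 2 genes described here, act at opposite ends of the cell's glutathione supply, and both were followed in a bile duct cancer cell line kept in lactate, in acid or in both. They were chosen by name, as the cystine transporter and the glutathione-degrading enzyme, from the authors' deposited tables, which list 5308 different genes in all. The choice was made with their lower levels in treated cells already known, so those levels are given as a description and without a test. CHAC1 is listed in all 3 deposited tables. SLC7A11 is listed in the lactosis and acidosis tables and not in the lactic acidosis table, so its level in lactic acidosis was not analysed here.

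The cells were KKU-213A, a human line from a cholangiocarcinoma of mixed papillary and non-papillary type, and poly(A) RNA from 4 groups was read in 12 libraries, 3 per group. Lactic acidosis cells grew at pH 6.7 with 25 mM L-lactate and 25 mM of the buffer HEPES, reached by stepwise replacement of the medium. Lactosis cells grew at pH 7.4 with 25 mM L-lactate, and acidosis cells at pH 6.5 with 25 mM HEPES. Control cells were untreated, and all 4 groups shared low-glucose DMEM with serum and antibiotics. Treated cells had at least 5 passages in their medium, and no passage number is given for control cells, so a treatment cannot be told apart from time in culture. HEPES is given for the acid media only, so acid and buffer cannot be told apart either. Whether libraries of the same group are separate cultures is not given, and p-values then cover only library-to-library spread, possibly technical.

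SLC7A11, also called xCT, is the subunit of system xc- that carries cystine into the cell in exchange for glutamate, and it is anchored at the membrane by SLC3A2. Imported cystine is reduced to cysteine, which limits the synthesis of glutathione, and glutathione lets GPX4 detoxify lipid peroxides and so restrains ferroptosis. CHAC1 is a gamma-glutamyl cyclotransferase that cleaves glutathione inside the cell, and CHAC2 is its close relative with lower catalytic activity. Transcription of SLC7A11 and of CHAC1 is known to be raised by ATF4, the factor of the amino acid and unfolded protein responses, and SLC7A11 also by NRF2. In GENCODE release 29 on GRCh38, SLC7A11 lies on the minus strand of chromosome 4 from 138164097 to 138242349, with 12 exons in its longest transcript. CHAC1 lies on the plus strand of chromosome 15 from 40952962 to 40956519, with 3 exons.

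ATF4 binds composite elements of the form TGATGNAA, which join parts of its own site and of a C/EBP site, and the promoter of CHAC1 holds one. No promoter window of SLC7A11 was available. The windows below are of CHAC1 and SLC1A4, a neutral amino acid transporter gene, both lower in treated cells, and of CHAC2, which was higher. They were picked as examples, and whether a match goes with the direction of change was not tested. They are RefSeq windows of GRCh38.p14 on the plus strand, 250 bases before to 50 bases after an annotated start, at chr15:40953221-40953520, chr2:64989149-64989448 and chr2:53767533-53767832. Capitals mark each match to TGATGNAA on either strand.
CHAC1: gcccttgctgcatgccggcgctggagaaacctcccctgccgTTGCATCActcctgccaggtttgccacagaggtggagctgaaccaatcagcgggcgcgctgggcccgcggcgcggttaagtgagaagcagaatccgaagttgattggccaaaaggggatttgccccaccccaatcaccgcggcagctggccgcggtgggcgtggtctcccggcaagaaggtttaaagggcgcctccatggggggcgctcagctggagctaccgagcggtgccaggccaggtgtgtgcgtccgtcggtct
SLC1A4: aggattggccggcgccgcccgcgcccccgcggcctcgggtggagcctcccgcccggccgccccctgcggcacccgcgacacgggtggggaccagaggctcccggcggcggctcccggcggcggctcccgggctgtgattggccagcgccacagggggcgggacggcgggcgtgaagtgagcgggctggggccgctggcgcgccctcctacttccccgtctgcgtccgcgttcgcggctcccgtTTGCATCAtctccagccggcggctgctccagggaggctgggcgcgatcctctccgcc
CHAC2: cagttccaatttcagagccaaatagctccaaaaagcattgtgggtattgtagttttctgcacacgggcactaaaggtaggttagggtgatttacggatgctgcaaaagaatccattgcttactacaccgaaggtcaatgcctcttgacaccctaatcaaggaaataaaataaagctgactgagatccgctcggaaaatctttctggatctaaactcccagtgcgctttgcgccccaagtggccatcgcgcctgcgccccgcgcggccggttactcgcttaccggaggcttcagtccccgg
The CHAC1 window held 1 match, TTGCATCA, which reads TGATGCAA on the minus strand, at chr15:40953262-40953269 and 209 bases before the start. Of the 2 RefSeq windows of SLC1A4, the one shown held the same 8 letters at chr2:64989392-64989399, 7 bases before its start, and the other, at chr2:64988229-64988528, held no match. No match was found in this CHAC2 window. TGATGNAA on either strand was found in 3.62% of 35116 RefSeq windows of this length, and TGATGCAA alone in 0.866%. Of 46 genes listed from the literature as targets of ATF4 or of amino acid stress, 31 had a window. Of these 31, 10 held a match, CHAC1 and SLC1A4 among them, against 4.46% of all 27305 genes with a window. SLC3A2 is also among the 10 and is in none of the tables. As the list was made of reported targets, a higher share says nothing about these cells. Among the genes found below to be most like each member across libraries, 1 of 5 for SLC7A11 (SLC1A4) and 1 of 4 with a window for CHAC1 (DSG3) held one. A match of letters is a description of the sequence, and binding was not measured.

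CHAC1 was far below control in every treated library, and less so in lactic acidosis than in lactosis or acidosis. Its deposited expression value, scaled to gene length and library, was 11.12, 15.62 and 11.48 in the 3 lactic acidosis libraries, 3.71, 2.99 and 3.81 in lactosis, 3.59, 4.29 and 4.05 in acidosis, and 51.56, 78.56 and 54.47 in control. No treated library overlapped with control, the highest of them being lactic acidosis library 2 and the lowest lactosis library 2. Every listed gene was listed for differing from control, which favours such a lack of overlap. How many other listed genes share it was not counted, here or for the genes below. The means were 12.7 ± 2.50 for lactic acidosis, 3.50 ± 0.447 for lactosis, 3.98 ± 0.356 for acidosis and 61.5 ± 14.8 for control (SD, n = 3 each). These means are 20.7%, 5.69% and 6.46% of the control mean in lactic acidosis, lactosis and acidosis. The authors' deposited tables put the log2 ratio of treated over control at -2.38 for lactic acidosis, -4.15 for lactosis and -3.93 for acidosis, with a posterior probability of equal expression of 0 in each. The 3 comparisons share the same control libraries and are not independent of each other. In bulk RNA, fewer cells that express a gene and less of its RNA per cell cannot be told apart.

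SLC7A11 was also lower than control in both treatments that list it, by a smaller factor. Its deposited expression value was 13.43, 12.52 and 15.23 in lactosis, 11.83, 7.5 and 7.3 in acidosis, and 43.4, 49.33 and 27.66 in control. Treated and control libraries did not overlap, and acidosis library 1 stood above the other 2 acidosis libraries and just under the lowest lactosis library. The mean was 13.7 ± 1.38 in lactosis, 8.88 ± 2.56 in acidosis and 40.1 ± 11.2 in control (SD, n = 3 each), which is 34.2% of control in lactosis and 22.1% in acidosis. The log2 fold change in the authors' deposited tables was -1.61 in lactosis, with a posterior probability of equal expression of 0.0221, and -2.23 in acidosis, with 0.000175. An antisense gene, SLC7A11-AS1, covers 8.97% of the exonic bases of SLC7A11, and strandedness is not given in the sources used here, so reads from the pair in that stretch cannot be told apart. SLC7A11-AS1 is in none of the tables. None of 40 windows of 75 bases along SLC7A11, CHAC1 or CHAC2 occurred in a transcript of another gene.

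**Figure D1:**
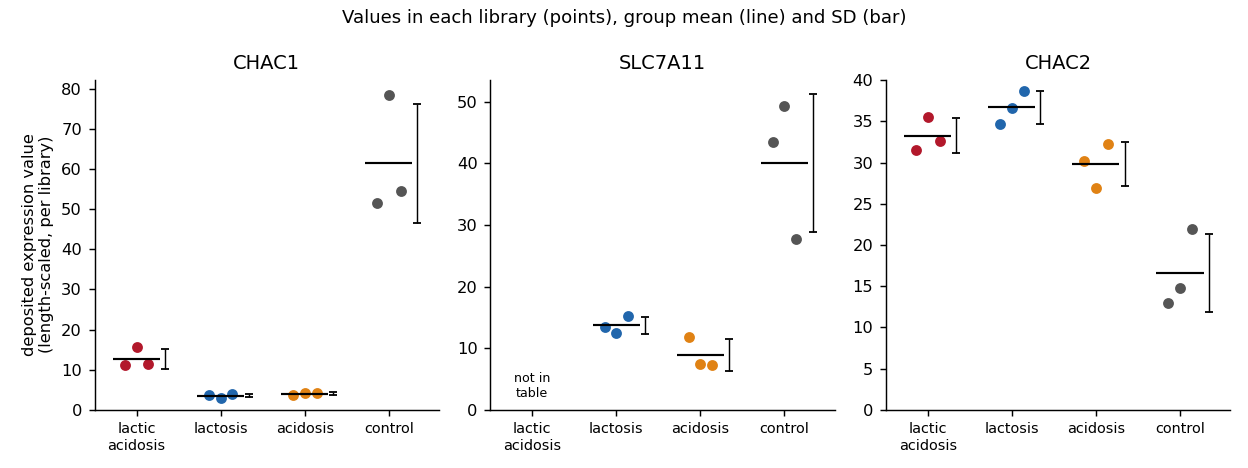
Deposited expression value (length-scaled, linear axis from 0) of CHAC1, SLC7A11 and CHAC2 in each library, with the group mean as a line and the SD as a bar (n = 3). All treated libraries sit below all controls for CHAC1 and SLC7A11 and above all controls for CHAC2, and SLC7A11 has no lactic acidosis values. The listing for a difference from control favours this lack of overlap.

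By size of change, CHAC1 stood nearer the far end of the lactosis and acidosis lists than SLC7A11 did. Ranked by the authors' deposited fold change among genes listed as lower, CHAC1 was number 9 of 1257 in lactosis, number 8 of 670 in acidosis and number 120 of 1758 in lactic acidosis. SLC7A11 was number 166 of 1257 in lactosis and number 22 of 670 in acidosis. Of all listed genes, the share listed lower was 41.1% for lactic acidosis, 40.7% for lactosis and 38.9% for acidosis, against 58.9%, 59.3% and 61.1% listed higher. Both members were past 2-fold in every table that lists them, as were 15.7% of all listed genes on the lower side and 10.5% on the higher side for lactic acidosis, 12.8% and 8.10% for lactosis, and 8.48% and 4.01% for acidosis. The deposited mean normalized count of CHAC1 was 165 in lactic acidosis libraries against 862 in control, 43.0 in lactosis libraries against 770 in control, and 54.9 in acidosis libraries against 845 in control, where each table scales the controls anew. For SLC7A11 it was 1086 in lactosis against 3315 in control, and 775 in acidosis against 3640 in control.

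**Figure D2:**
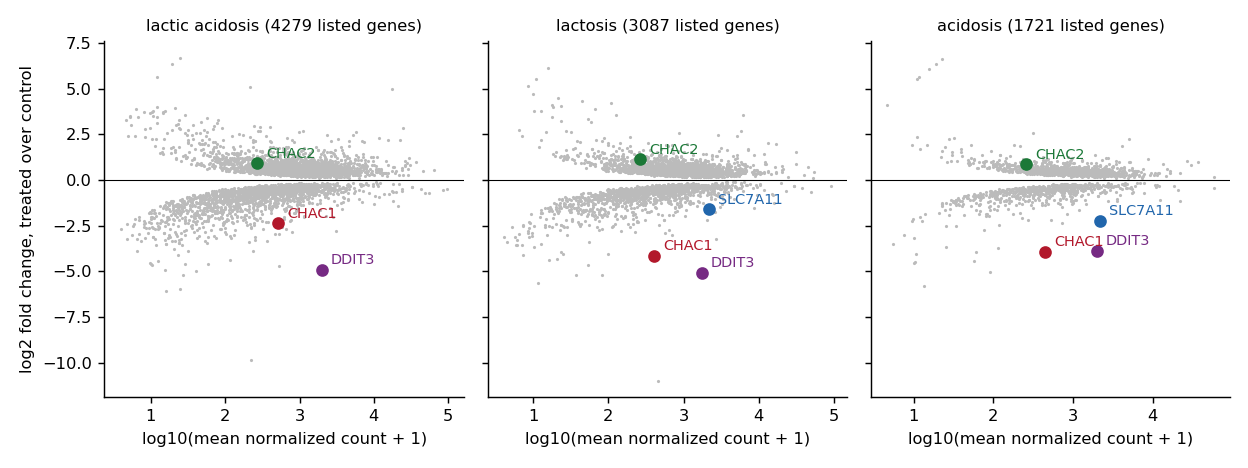
The authors' log2 fold change, treated over control, against log10 of the mean normalized count plus 1 for every listed gene (grey), in lactic acidosis, lactosis and acidosis, with CHAC1, SLC7A11, CHAC2 and DDIT3 marked. CHAC1 lies at -2.38, -4.15 and -3.93, and CHAC2 lies above 0 in all 3 tables.

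The balance between the 2 transcripts also shifted. The CHAC1 value divided by the SLC7A11 value of the same library was 0.276, 0.239 and 0.250 in lactosis, 0.304, 0.572 and 0.555 in acidosis, and 1.19, 1.59 and 1.97 in control. CHAC1 was thus above SLC7A11 per unit of length in all 3 control libraries and below it in all 6 treated libraries. Since both values come from the rule's own contrast, the ratio is a description.

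The treated groups were then set against each other. The test itself uses no control library, but a gene enters only if both tables of treated against control list it. The control libraries thus took part in the choice of genes, and so in the shares, ranks and adjusted p-values below. Lactic acidosis medium was also less acid than acidosis medium, so in that pair added lactate cannot be told apart from the pH. With limma on log2(value + 1), CHAC1 was higher in lactic acidosis than in lactosis by 1.60 on the log2 scale (SE 0.128, 95% interval 1.32 to 1.88, adjusted p = 2.04e-05), a 3.64-fold difference of the mean values. The lowest lactic acidosis library, at 11.12, was above the highest lactosis library, at 3.81. Of 2344 genes listed in both tables, 20.4% passed at an adjusted p under 0.05, 15.7% higher and 4.78% lower, and the median difference over all these genes was 0.107. Only 2 genes among them had a larger absolute difference than CHAC1.

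CHAC1 was also higher in lactic acidosis than in acidosis, by 1.45 (limma, SE 0.123, 95% interval 1.18 to 1.73, adjusted p = 2.39e-05), or 3.20-fold by the means. Here the lowest lactic acidosis library again stood above the highest acidosis library, at 4.29. In this comparison 48.8% of 1304 genes passed, 38.7% higher and 10.0% lower, with a median difference of 0.155, so a pass is common. CHAC1 was number 16 by absolute difference. Between lactosis and acidosis, CHAC1 differed by -0.15, with a 95% interval of -0.369 to 0.0755 (limma, adjusted p = 0.313), and the libraries overlapped. In this pair 23.9% of 1173 genes passed, 16.4% higher and 7.50% lower.

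SLC7A11 was higher in lactosis than in acidosis by 0.60 on the same scale (limma, SE 0.166, 95% interval 0.219 to 0.985, adjusted p = 0.0338), 1.55-fold by the means, where 16.4% of the genes tested were higher and the median difference was 0.0515. This call was lost with a pseudocount of 0.1 (adjusted p = 0.0526). It was also lost without lactosis library 1 (adjusted p = 0.0886), lactosis library 3 (0.0991), acidosis library 2 (0.133) or acidosis library 3 (0.0850), while the difference stayed between 0.49 and 0.81. Without acidosis library 1 it was 0.81, with an adjusted p of 0.00133. From high to low, CHAC1 ran control, lactic acidosis, acidosis and lactosis, the last pair not differing beyond their spread, and SLC7A11 ran control, lactosis and acidosis.

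**Figure D3:**
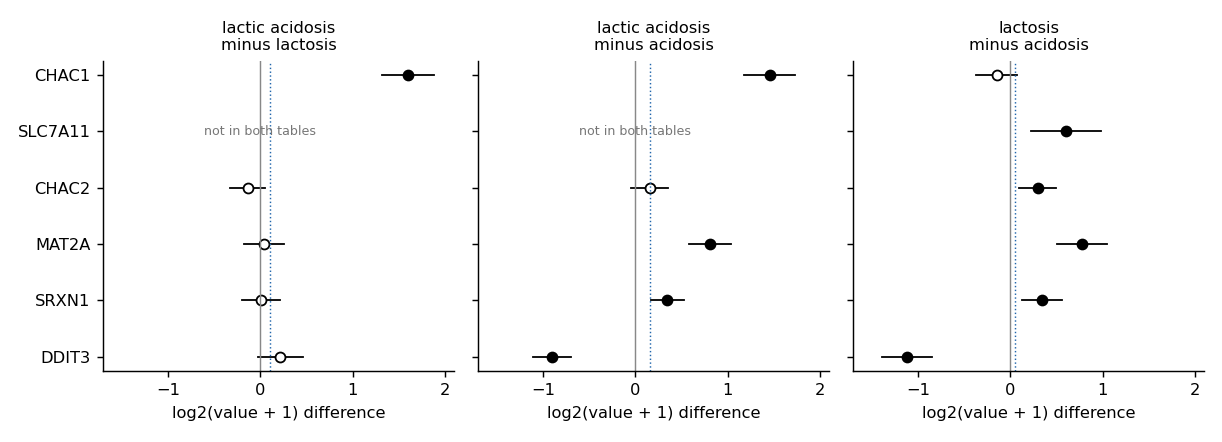
Difference of mean log2(value + 1) with its 95% interval (limma, 3 against 3 libraries) in lactic acidosis minus lactosis, lactic acidosis minus acidosis, and lactosis minus acidosis, for CHAC1, SLC7A11, CHAC2, MAT2A, SRXN1 and DDIT3. Filled points have an adjusted p under 0.05, the dotted line is the median of all genes tested, and CHAC1 lies at 1.60, 1.45 and -0.15.

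Lactic acidosis library 2, which had the highest treated value of CHAC1, also carried transcripts of striated muscle. Of 8 muscle markers, 6 were listed in the lactic acidosis table, and their summed value was 3.91, 35.58 and 3.4 in its libraries against 7.51 to 13.98 in control. The control sum was mostly TNNT3, which alone of the 6 was listed lower, and without it the sums were 1.19, 29.03 and 0.83 in lactic acidosis against 0.57 to 1.27 in control. For lactosis, 5 of 8 were listed, with sums of 0.47, 48.09 and 0.53 in lactosis and 0.64 to 1.48 in control, again high in library 2. None was listed in acidosis. Without lactic acidosis library 2 the CHAC1 difference was 1.45 from lactosis (limma, adjusted p = 0.000118) and 1.31 from acidosis (adjusted p = 4.68e-05). Of 4 immune markers only CD68 was listed (lactic acidosis), and of 3 endothelial markers only PECAM1 (acidosis). No hepatocyte or fibroblast marker was listed in any table, and of 8 markers of bile duct epithelium 3 were listed in the lactic acidosis table, 2 in that of lactosis and 0 in that of acidosis. The keratin KRT19 had values of 2596 to 3067 in lactic acidosis, 2729 to 2876 in lactosis and 2799 to 4419 in control. The transcription factor SOX9 was higher in lactic acidosis, at 32.85, 35.7 and 33.87 against 6.41, 12.17 and 17.34 in control, and the mucin MUC1 was lower in lactic acidosis (-2.53 on the authors' log2 scale) and in lactosis (-1.53).

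CHAC2 went the other way. Its value was 31.52, 35.6 and 32.65 in lactic acidosis, 34.73, 36.65 and 38.72 in lactosis, 30.22, 26.95 and 32.22 in acidosis, and 12.97, 14.8 and 21.93 in control. Every treated library was above every control library, and the authors' deposited log2 fold changes were 0.91, 1.13 and 0.85 in lactic acidosis, lactosis and acidosis. Between treated groups CHAC2 was higher in lactosis than in acidosis by 0.29 (limma, adjusted p = 0.0417). In lactic acidosis its value was therefore above that of CHAC1 in each library, as it was in lactosis and acidosis, while in control CHAC1 was the higher of the pair.

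Of 14 genes of glutathione breakdown, 3 were listed in lactic acidosis (1 higher, 2 lower), 4 in lactosis (2 higher, 2 lower) and 3 in acidosis (1 higher, 2 lower). Over all listed genes, 41.1%, 40.7% and 38.9% were lower in those treatments, and a difference from these shares was not tested. Besides CHAC1 and CHAC2 these were GGT6 and GGT7, of the gamma-glutamyltransferase family that handles glutathione outside the cell, and CNDP2, a dipeptidase. GGT6 had values of 12.92, 12.25 and 14.49 in lactic acidosis, 12.41, 12.17 and 10.09 in lactosis, and 33.96, 31.24 and 27.38 in control, or -1.32 (lactic acidosis) and -1.47 (lactosis) on the authors' log2 scale. GGT7 was listed lower in acidosis (-0.58) and CNDP2 higher in lactosis (0.41). GGT1 and GGCT were in none of the tables.

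On the import side, SLC3A2, the partner of SLC7A11, was in none of the tables. Among the 7 genes of cystine transport, the only others listed were CTNS and MFSD12, which move cystine and cysteine across the lysosomal and melanosomal membranes. Both were higher in lactic acidosis, by 0.47 for CTNS and 0.76 for MFSD12 on the authors' log2 scale, and MFSD12 was higher in lactosis by 0.70. None of the 3 genes of glutathione synthesis, GCLC, GCLM and GSS, was listed in any table, nor was GPX4.

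The other route to cysteine runs through methionine. Of 15 genes of this route and of cysteine supply, 2 were listed higher and 4 lower in lactic acidosis, 2 higher and 1 lower in lactosis, and 2 higher and 0 lower in acidosis. The list also holds genes of sulfide oxidation, which lie off the route. The 2 higher in each treatment were MAT2A and SQOR, and ETHE1 was among the lower ones in lactic acidosis. Over all listed genes, 41.1%, 40.7% and 38.9% were lower in those treatments. MAT2A, which makes S-adenosylmethionine from methionine, had values of 316.83, 338.37 and 304.32 in lactic acidosis, 292.82, 291.03 and 353.05 in lactosis, 210.54, 172.75 and 164.92 in acidosis, and 87.56, 130.86 and 135.74 in control. All treated libraries were above control, and MAT2A was higher in lactic acidosis than in acidosis by 0.81 (limma, adjusted p = 0.000201) and higher in lactosis than in acidosis by 0.77 (adjusted p = 0.00333). CTH, which releases cysteine from cystathionine, was listed in lactic acidosis alone, at 5.65, 6.76 and 5.7 against 22.4, 20.05 and 11.26 in control (-1.73 on the authors' log2 scale). SQOR, a mitochondrial enzyme of sulfide oxidation listed under an older symbol, was higher in all 3, by 0.84, 0.58 and 0.35 in lactic acidosis, lactosis and acidosis.

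**Figure D4:**
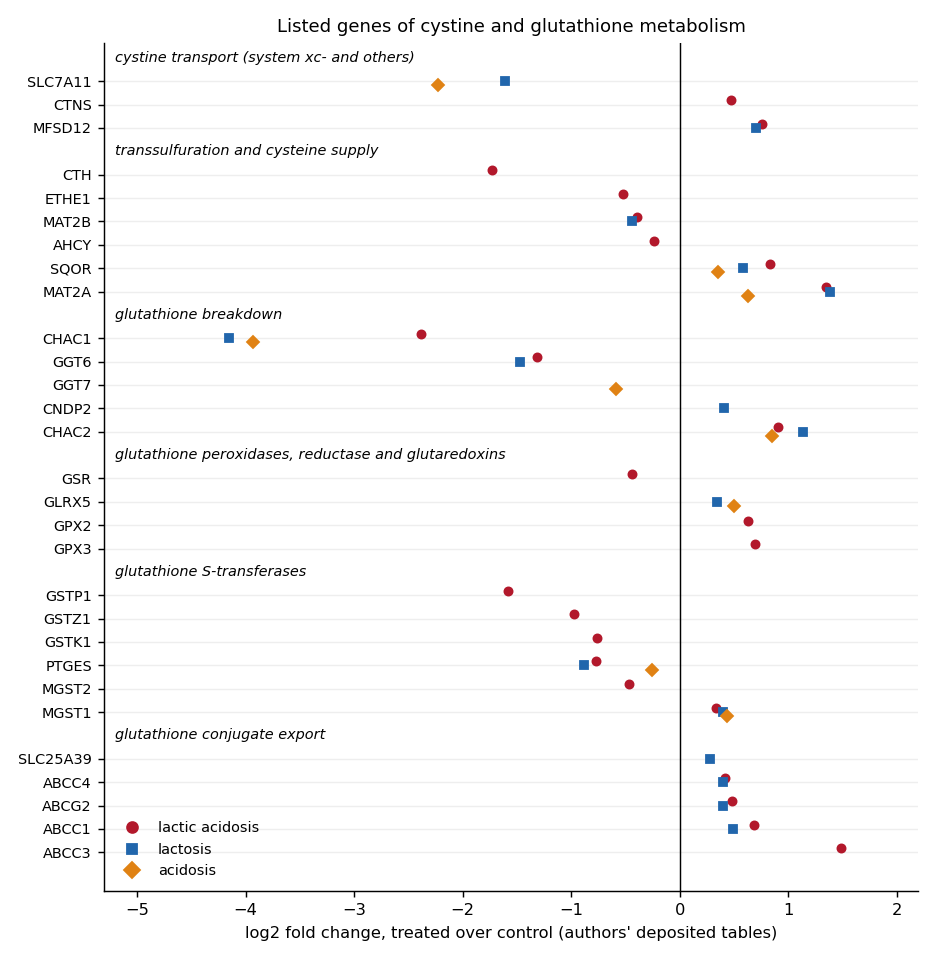
The authors' log2 fold change, treated over control, of each listed gene in 6 lists around cystine and glutathione, with 1 marker per treatment. A missing marker means that the gene is not in that table; the 3 CHAC1 points and the acidosis point of SLC7A11 lie farthest to the left, and CHAC2 lies to the right of 0 in all 3.

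Among genes that use or export glutathione, more were listed in the lactic acidosis table, which is also the longest. Over all listed genes, 58.9% were higher and 41.1% lower in lactic acidosis, 59.3% and 40.7% in lactosis, and 61.1% and 38.9% in acidosis. Whether the counts below differ from these shares was not tested. Of 22 glutathione S-transferases and related enzymes, 1 was listed higher and 5 lower in lactic acidosis, against 1 higher and 1 lower in each of lactosis and acidosis. The lower ones in lactic acidosis included GSTP1, with values of 236.75, 235.27 and 253.05 against 696.54, 673.77 and 613.74 in control (-1.58 on the authors' log2 scale), and GSTZ1 (-0.97). Of 14 glutathione peroxidases, reductase and glutaredoxin genes, 2 were higher and 1 lower in lactic acidosis, and 1 was higher and 0 lower in lactosis and in acidosis. GSR, the reductase, was the lower one (-0.44). Of 8 transporters of glutathione and its conjugates, 4 were higher in the lactic acidosis table, 4 in that of lactosis and 0 in that of acidosis, among them ABCC1 (0.69 in lactic acidosis and 0.49 in lactosis) and ABCC3 (1.49 in lactic acidosis).

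In the thioredoxin and peroxiredoxin system of 16 genes, 4 were higher and 2 lower in lactic acidosis, 2 higher and 1 lower in lactosis, and 3 higher and 1 lower in acidosis. The share higher over all listed genes was 58.9%, 59.3% and 61.1% in those treatments. TXNIP, which binds thioredoxin, was higher by 2.07, 1.73 and 2.60, and SRXN1, which repairs oxidised peroxiredoxins, by 0.63, 0.70 and 0.37. These are the authors' deposited log2 fold changes, in the same order of treatments.

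Genes reported as targets of ATF4 and NRF2, the 2 regulators named above for SLC7A11, were then counted. The activity of ATF4 and NRF2 was not measured, and whether it bears on SLC7A11 or CHAC1 here was not tested. Of the 46 genes listed for ATF4 and amino acid stress, 1 was listed higher and 11 lower in lactic acidosis, 2 higher and 13 lower in lactosis, and 1 higher and 13 lower in acidosis. SLC7A11 and CHAC1 are themselves on that list, and without them 10, 11 and 11 were lower in lactic acidosis, lactosis and acidosis. The share lower over all listed genes was 41.1%, 40.7% and 38.9%. Also without them, the median log2 fold change of the genes listed was -2.01 (lactic acidosis), -1.73 (lactosis) and -1.83 (acidosis), where all listed genes of those tables had medians of 0.37, 0.35 and 0.32. ATF4 itself was in none of the tables. DDIT3, a transcription factor induced by ATF4, had values of 15.06, 17.01 and 16.99 in lactic acidosis, 16.64, 12.95 and 12.5 in lactosis, 34.95, 29.18 and 30.43 in acidosis, and 678.38, 480.78 and 202.53 in control. Its order among treated groups was not that of CHAC1, since it was lower in lactic acidosis than in acidosis by 0.90 (limma, adjusted p = 6.06e-05) and lower in lactosis than in acidosis by 1.12 (adjusted p = 0.000905).

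Of 40 genes of the NRF2 pathway, 4 were higher and 6 lower in lactic acidosis, 2 higher and 5 lower in lactosis, and 1 higher and 4 lower in acidosis. SLC7A11 is among the lower ones in lactosis and acidosis, and without it 4 were lower in lactosis and 3 in acidosis. The median log2 fold change without it was -0.44 (lactic acidosis), -0.46 (lactosis) and -0.33 (acidosis). NFE2L2, the gene of NRF2, was lower in all 3, with -0.50 for lactic acidosis, -0.49 for lactosis and -0.31 for acidosis on the authors' log2 scale. Its targets EPHX1 (-1.96, -1.002 and -0.51) and SRXN1 moved in opposite directions. Of 33 ferroptosis genes, 5 were higher and 7 lower in lactic acidosis, 3 higher and 4 lower in lactosis, and 2 higher and 4 lower in acidosis. Beside the NRF2 and ferroptosis counts, 41.1%, 40.7% and 38.9% of all listed genes were lower in those treatments. Whether either list differs from that share was not tested. SCD, a fatty acid desaturase, was lower in each (-1.40, -0.61 and -1.14).

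CHAC1 has also been described, in mouse, as an inhibitor of Notch processing, and of 26 Notch genes 2 were higher and 3 lower in lactic acidosis, 3 higher and 5 lower in lactosis, and 1 higher and 5 lower in acidosis. HEY1, a Notch target, was the one with the largest change in each, at -3.27, -2.31 and -2.19 in lactic acidosis, lactosis and acidosis. Of 23 genes of the eIF2 kinases and unfolded protein response, 2 were higher and 3 lower in lactic acidosis, 1 higher and 3 lower in lactosis, and 1 higher and 2 lower in acidosis. For this list and the Notch list, the same share over all listed genes was 41.1%, 40.7% and 38.9% lower in those treatments. HERPUD1, of endoplasmic reticulum protein degradation, was listed lower in lactic acidosis (-2.80) and lactosis (-3.26).

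The genes whose libraries followed CHAC1 most closely were found by Pearson's r of log2(value + 1) over 12 libraries, among 1023 genes listed in all 3 tables with a mean value of at least 1. They were KLF4, a transcription factor (r = 0.976), DSG3, a desmosomal cadherin (0.960), INHBE, an inhibin subunit (0.947), SESN2, a stress-induced sestrin (0.943), and the adaptor SH3BP2 (0.940), where the median over all genes was -0.525. The treated and control libraries stand apart for these genes, and much of r is that split. Over the 9 treated libraries alone r was 0.926 for KLF4, 0.919 for INHBE, 0.859 for DSG3, 0.683 for SESN2 and 0.610 for SH3BP2. These 9 are among the 12 libraries used for the choice, which favours a high r, so the values are a description only. INHBE is also low in treated libraries, at most 1.42, where the added 1 weighs heavily. INHBE had values of 0.89, 0.97 and 1.42 in lactic acidosis, 0.33, 0.08 and 0.2 in lactosis, 0.21, 0.1 and 0.36 in acidosis, and 11.15, 7.94 and 3.47 in control. All 3 lactic acidosis libraries were above all lactosis and acidosis libraries, as for CHAC1. A choice by likeness over these same libraries favours that order, so the limma result of INHBE is not used as support here.

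For SLC7A11, over the 9 libraries of lactosis, acidosis and control and 1151 genes, the closest were AMOTL2, an angiomotin family scaffold (r = 0.989), SREBF1, a transcription factor of lipid synthesis (0.976), SLC1A4 (0.974), GPNMB, a transmembrane glycoprotein (0.970), and RASSF6, a Ras association domain protein (0.967), with a median of -0.63 over all genes. AMOTL2 had values of 46.97, 44.33 and 55.45 in lactosis, 42.39, 36.81 and 34.03 in acidosis, and 80.94, 96.12 and 72.7 in control, highest in the same control library and lowest in the same acidosis library as SLC7A11. SLC1A4 had 10.21, 8.58 and 10.2 in lactosis, 9.94, 8.5 and 7.43 in acidosis, and 33.41, 36.7 and 21.76 in control. CHAC1 was number 57 by likeness to SLC7A11 (r = 0.909), but within the 6 treated libraries r between the pair was -0.59, so the 2 genes shared the split from control and not the order of the treated libraries.

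**Figure D5:**
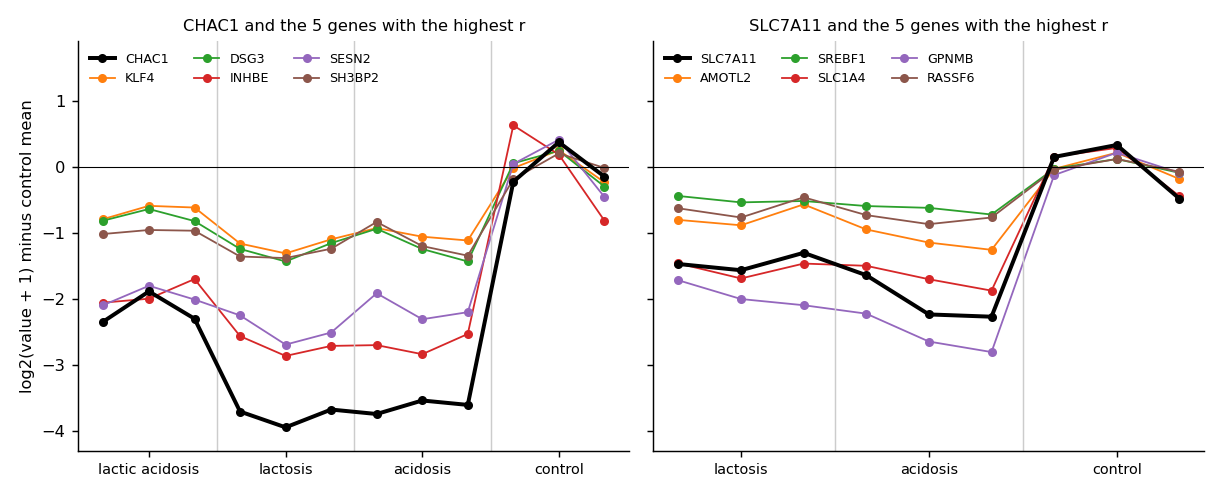
Log2(value + 1) minus the control mean in each library for CHAC1 (left, 12 libraries) and SLC7A11 (right, 9 libraries) with the 5 genes most like each by Pearson's r. Groups are separated by vertical lines, and lines between points only guide the eye. CHAC1, KLF4, DSG3 and INHBE are higher in all 3 lactic acidosis libraries than in any lactosis or acidosis library, and SESN2 and SH3BP2 are not.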

How the data were processed

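Per the labels, poly(A) RNA was sequenced as single-end reads of 75 nt. STAR and hg38 are named in the submitters' processing notes. The counting tool and strandedness are not given in the sources used here. The authors deposited 3 tables, 1 per treatment, with EBSeq-style columns. Their per-library values are a signal, expression scaled to gene length and library, and nothing says if this is TPM or FPKM. Deposited group means are a signal too, counts divided by size factors. The deposited fold change is a control-to-treated ratio, inverted here. The deposited posterior probability of equal expression is under 0.05 for every listed gene; other genes were not analysed here. Read depth is unknown, so no counting interval or floor is given.

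The control values were the same in all 3 tables (largest difference 0). Fitted library weights were 1.0 for control replicate 1 and 0.755 to 0.810 for controls 2 and 3, so its values lie low, and the values set treated over control 0.10, 0.02 and 0.003 higher (log2) than the authors' size factors in lactic acidosis, lactosis and acidosis. Genes listed in both tables were tested between treated groups with limma 3.58.1 under R 4.3.3, unfiltered, on log2(value + 1), with Benjamini-Hochberg adjustment at 0.05; there were 3 pairs of groups and 4 tests of the members. The method was tested on simulated data. Members and gene lists (14 lists, 262 genes) were chosen with earlier results of these data known. The named genes were the members, the 5 genes most like each, up to 4 per list by absolute fold change with a mean count of at least 10, and a short list of glutathione and stress genes; CNDP2 was named after its values were seen. The list of glutamate handling is not reported here. MAT2A shared 2.5% of its windows with another transcript. Other tools were scipy 1.17.1, matplotlib 3.10.9, pandas 2.3.3 and numpy 2.4.6 in Python 3.11.15. Alternatives were other pseudocounts, filters and thresholds, library weights, a replicate block, a joint fit and leaving out each library.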

Additional observations from a re-analysis of the deposited data

Results flagged for a closer look

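These results were looked for in CHAC1, SLC7A11, CHAC2, GGT6, MAT2A, DDIT3 and SRXN1 only. Each was singled out because the gene's response differed between treatments by a test of the difference itself. The test was limma on log2(value + 1), at an adjusted p under 0.05. Other list genes passed too. Of 39 list genes tested in lactic acidosis minus lactosis, 8 were higher and 4 lower, where 20.4% of all genes passed. Of 29 in lactic acidosis minus acidosis, 7 were higher and 7 lower, where 48.8% passed. Of 33 in lactosis minus acidosis, 6 were higher and 7 lower, where 23.9% passed. CHAC1 was higher in lactic acidosis than in lactosis by 1.60 and than in acidosis by 1.45. DDIT3 differed by -0.90 in lactic acidosis minus acidosis and by -1.12 in lactosis minus acidosis. MAT2A was higher than in acidosis by 0.81 in lactic acidosis and by 0.77 in lactosis. SRXN1 was higher than in acidosis by 0.35 in lactic acidosis and by 0.34 in lactosis. SLC7A11 was higher in lactosis than in acidosis by 0.60, and CHAC2 by 0.29.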

How the results depend on the processing

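The 2 higher CHAC1 differences of lactic acidosis passed under all 12 alternatives run, with leave-one-out values of 1.45 to 1.68 against lactosis and 1.31 to 1.54 against acidosis. The CHAC1 difference between lactosis and acidosis did not pass under any of 12. The members' ratios to control stayed within 1 SD under all 10 alternatives each. SLC7A11 in lactosis minus acidosis missed the threshold with a pseudocount of 0.1 (0.65, the cause was not tested) and with any of 4 of the 6 libraries left out, over a leave-one-out range of 0.49 to 0.81, and passed without either of the other 2. It passed with the replicate number as a block (0.60, adjusted p = 0.0171). Same-numbered libraries showed no steady pairing (correlations of deviations of -0.43 to 0.19), though library 2 of lactic acidosis and of lactosis both carried muscle transcripts. The block changed no member's call.

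Counts over all genes moved more. Lactic acidosis against lactosis gave 367 higher and 112 lower, 225 and 69 in the fit of 9 libraries over fewer genes, and 192 to 551 and 63 to 135 with 1 library left out. Lactosis against acidosis gave 192 higher and 88 lower, 142 lower with library weights (the cause was not tested), and 84 to 260 and 47 to 81 with 1 library left out. At 2-fold or more, genes of all lists numbered 4 higher and 18 lower in lactic acidosis (29 and 41 at any size), 4 and 17 in lactosis (23 and 32), and 1 and 14 in acidosis (14 and 30). Of all listed genes, 10.5% were higher and 15.7% lower at 2-fold in lactic acidosis, 8.10% and 12.8% in lactosis, and 4.01% and 8.48% in acidosis. At any size 41.1%, 40.7% and 38.9% were lower. For single lists, 202 of 272 alternative counts stayed within 1.5 times and 70 moved, 58 of them at 2-fold. Directions without control replicate 1 or treated replicate 2 were added after seeing the data. The SLC7A11 listing in lactosis was lost at a probability under 0.01. Depth is unknown, so what depth limits cannot be set.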
